A study of Homo sapiens with 60 samples.

Results

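The genes of mitosis and of the G2/M transition were followed in A549, a cell line from a human lung adenocarcinoma, kept for 24 h with herbal extracts of Korean medicine. The group holds 42 genes of the 60675 in the deposited table, chosen by symbol: each symbol was matched to its Ensembl ID, and all 42 were found and passed the filter on low counts that left 17256 genes for testing. The hot-water extracts were 2 single herbs, Menthae Herba and Saposhnikoviae Radix, and 5 decoctions of several herbs, namely Saengmaek-san, Soyo-san, Guibi-tang, Soshiho-tang and Okbyeongpung-san. Each was labelled as given at 20, 100 and 500 µg/mL, and the reference was 1 vehicle group of DMSO. DMSO stood at 0.1% in the sample labels and at 2% in the series text, which also stated that extracts inhibiting growth below 500 µg/mL were given at a lower top dose, so a labelled dose may not be the same mass for every extract. The vehicle and 6 of the extracts had 3 libraries in each group, and Soshiho-tang had 1 library at each dose and no test. Whether a group's libraries stem from separate cultures is not stated in the labels, so the p-values reflect no more than the spread among these libraries, which may be technical.

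A cell that has copied its DNA enters mitosis when cyclin B switches on the kinase CDK1, and the CDC25 phosphatases release CDK1 from its inhibitory phosphates. Kinesins and other spindle proteins then capture and align the chromosomes, the spindle checkpoint holds back the anaphase-promoting complex until every chromosome is attached, and the complex with its partner CDC20 marks cyclin B and securin for destruction. The messenger RNAs of these proteins accumulate together as cells approach division, through promoters that carry CCAAT boxes, bound by NF-Y, and CHR elements, bound by the MuvB complexes with B-MYB and FOXM1. In bulk RNA from a dividing culture, fewer cells in G2 and mitosis and less of a transcript in each such cell cannot be told apart.

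The promoters of 4 of the genes whose levels are described below are shown because they carry both elements close to the start of transcription. Each window runs from 250 bases before to 50 bases after the start, 300 bases in all, on the strand of the gene, and was taken from RefSeq on GRCh38.p14. Capitals mark the letters CCAAT and the CHR letters TTTGAA or TTCGAA. Both strands were searched, and a match on the other strand is printed as its reverse complement. The windows lie at chr1:43358731-43359030 on the plus strand for CDC20, chr15:59104896-59105195 on the plus strand for CCNB2, chr15:90994486-90994785 on the minus strand for PRC1 and chr16:23678639-23678938 on the plus strand for PLK1.
CDC20: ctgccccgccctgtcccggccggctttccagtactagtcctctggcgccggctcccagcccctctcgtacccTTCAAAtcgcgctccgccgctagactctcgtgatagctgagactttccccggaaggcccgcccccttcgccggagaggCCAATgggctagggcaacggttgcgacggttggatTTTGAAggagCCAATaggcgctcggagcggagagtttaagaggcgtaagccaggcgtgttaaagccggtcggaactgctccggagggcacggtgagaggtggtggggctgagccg
CCNB2: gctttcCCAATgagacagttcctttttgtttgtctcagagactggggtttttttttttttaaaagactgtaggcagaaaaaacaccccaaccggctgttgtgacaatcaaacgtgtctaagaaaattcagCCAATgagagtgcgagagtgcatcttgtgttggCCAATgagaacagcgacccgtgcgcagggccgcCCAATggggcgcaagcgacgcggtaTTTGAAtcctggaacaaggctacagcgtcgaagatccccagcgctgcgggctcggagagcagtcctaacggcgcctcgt
PRC1: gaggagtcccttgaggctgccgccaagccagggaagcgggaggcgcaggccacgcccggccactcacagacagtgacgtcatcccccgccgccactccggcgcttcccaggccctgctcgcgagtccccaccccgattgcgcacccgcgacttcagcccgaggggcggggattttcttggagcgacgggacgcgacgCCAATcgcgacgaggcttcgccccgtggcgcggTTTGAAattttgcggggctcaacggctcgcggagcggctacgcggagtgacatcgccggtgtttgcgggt
PLK1: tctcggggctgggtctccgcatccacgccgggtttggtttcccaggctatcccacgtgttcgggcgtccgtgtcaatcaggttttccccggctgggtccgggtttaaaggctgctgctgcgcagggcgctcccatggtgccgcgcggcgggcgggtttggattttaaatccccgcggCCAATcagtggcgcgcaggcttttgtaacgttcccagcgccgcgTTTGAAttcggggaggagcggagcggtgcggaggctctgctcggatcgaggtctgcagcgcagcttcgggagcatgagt

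CCNB2 carried 4 CCAAT boxes and 1 CHR, and CDC20 carried 2 of each. PRC1 and PLK1 had 1 of each, the CCAAT box at -53 and -73 and the CHR at -20 and -29, counted in bases from the start. RefSeq windows were at hand for 35 of the 42 genes, 45 windows in all. A CCAAT box stood in 75.6% of the 45 windows, against 34.6% of all 35116 promoter windows of that length, and TTTGAA or TTCGAA stood in 68.9%, against 16.4%. Both together stood in 57.8% of the windows of the 42 genes, in 44.3% of 61 windows of other G2/M genes and in 6.38% of all windows. A match of letters is a description and not a site shown to be bound.

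Every gene of the group had counts in every library. Library totals ran from 18330592 to 35308791 counts, and the lowest count of any of the 42 genes in any library was 233 (CDC25C and NDC80). The deposited counts are estimates. Those of PRC1, FOXM1 and CDCA3 were not whole in 60 libraries, of CCNA2 in 59, KIF23 in 58, PLK1 in 49 and CDC20 in 24. Reads of such genes may be split with other genes. Levels are given as CPM, which are counts scaled to library size with TMM factors. The 42 genes took together 0.599 to 0.725% of the counts of a library. Per kilobase of exon, the vehicle level ran from 4.15 CPM for NDC80, a subunit of the kinetochore complex that binds microtubules, to 156 CPM for TOP2A, the topoisomerase that untangles sister chromatids, with CDC25B at 84.2, TPX2 at 79.6, CCNB1 at 75.7 and CDC20 at 70.5 CPM per kilobase. The epithelial keratins KRT8 and KRT18 stood at medians of 3140 and 2546 CPM, and the lung markers NKX2-1 and SFTPB were near 0. Among markers of other cell types, CD3E was at 0 in all 60 libraries and PTPRC, PECAM1, VWF and DCN did not pass 0.270 CPM, whereas COL1A1 reached 39.9 and CD68 21.1 CPM. The sum of the 8 such markers was 40.8 to 59.0 CPM in the libraries with extract, against 43.0 to 45.3 CPM with vehicle, and its part in the results was not tested.

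The libraries fell into 2 stretches, and the mitotic genes differed between them. In the order of the library names, the mitochondrial share of counts stepped up after the 31st library, to a mean of 16.1% in the 29 later libraries, against 11.9% in the 31 earlier ones. All vehicle and single-herb libraries came before the step, every library of Soshiho-tang, Soyo-san and Okbyeongpung-san came after it, and Saengmaek-san and Guibi-tang had libraries on both sides. With the side of the step as a term in the fit, resting on Saengmaek-san and Guibi-tang, edgeR's quasi-likelihood test called 32 of the 42 genes different after the step, 25 higher and 7 lower (adjusted p under 0.05), and 43.7% of all genes tested. PTTG1, which encodes securin, was higher by 0.38 ± 0.03 (log2, SE; adjusted p = 8.76e-14), MKI67, the proliferation marker Ki-67, by 0.30 ± 0.05 (adjusted p = 3.94e-06) and the spindle factor TPX2 by 0.25 ± 0.02 (adjusted p = 4.94e-12). Lower after the step were MAD2L1, a spindle checkpoint protein (-0.21 ± 0.03), CDK1 (-0.17 ± 0.03), BIRC5, which encodes survivin (-0.17 ± 0.03), and CCNB1, cyclin B1 (-0.13 ± 0.03). For Soyo-san and Okbyeongpung-san, extract and side of the step cannot be told apart from the libraries of these groups alone.

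**Figure D1:**
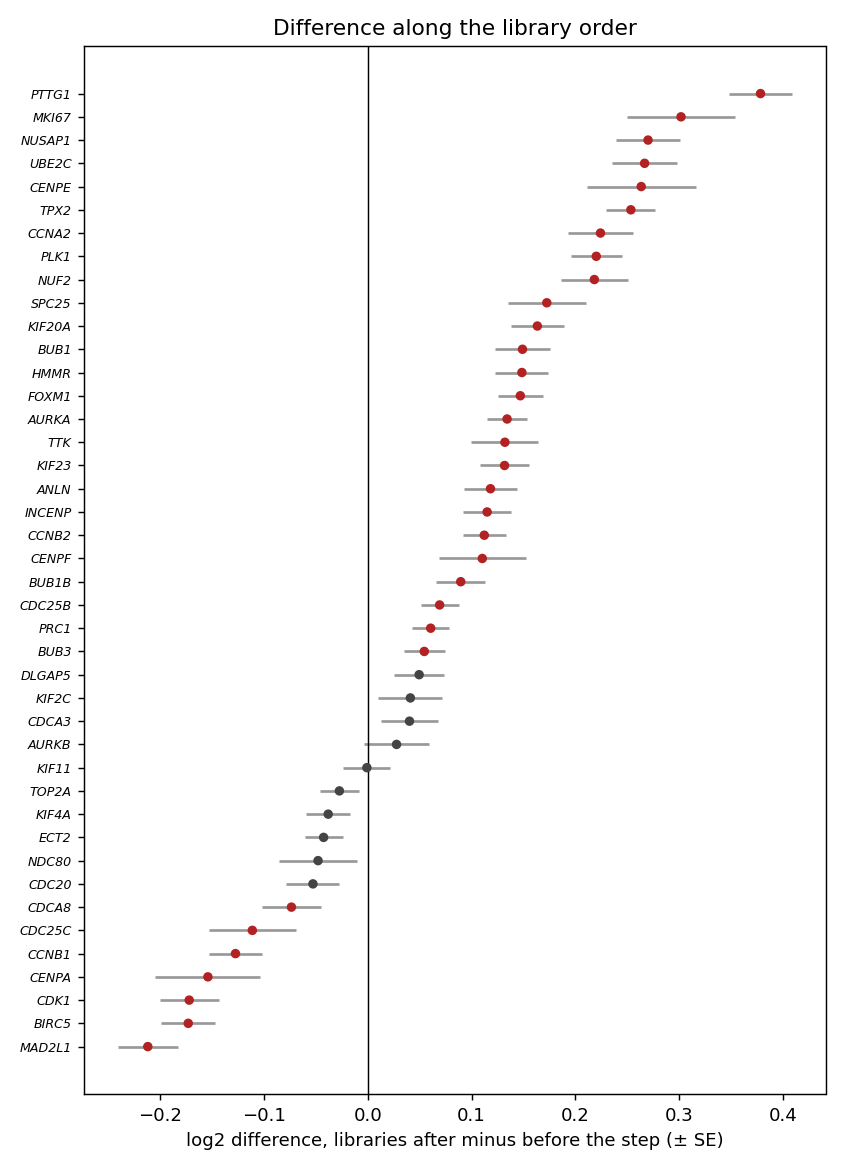
Difference of each of the 42 genes between libraries after and before the step in the library order, as log2 with its standard error on the horizontal axis, one gene a row. Red points passed adjusted p under 0.05: 25 genes lie to the right of 0 and 7 to the left, from PTTG1 at 0.38 to MAD2L1 at -0.21.

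The mean log2 level of the 42 genes, set against the mean of the 3 vehicle libraries, ran from -0.11 to 0.04 over the 57 libraries other than Soshiho-tang. Before the step its median was -0.05, and after it, without Soshiho-tang, -0.01. The lowest of the 57 were the 2 early libraries of Guibi-tang at 500 µg/mL. One library stood outside this range, Soshiho-tang at 500 µg/mL with -0.22.

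**Figure D2:**
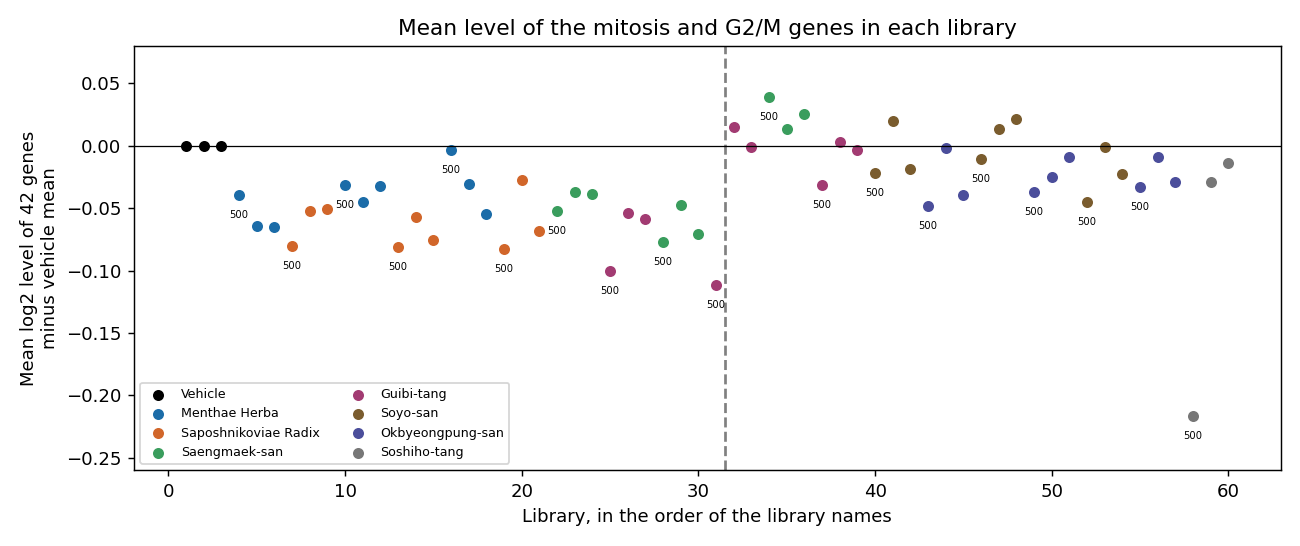
Mean log2 level of the 42 genes in each of the 60 libraries minus the vehicle mean (vertical axis), in the order of the library names (horizontal axis), coloured by extract, with 500 printed under libraries of the top dose. The dashed line is the step after the 31st library; the Soshiho-tang library at 500 µg/mL lies at -0.22 and the others between -0.11 and 0.04.

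The first comparison asked how each extract at 500 µg/mL differed from vehicle. Changes of the mitotic genes were small in the fit without the side of the step, where no log2 change passed 0.26 in size, and reached -0.38 with the side as a term. In the fit without that term, Guibi-tang had the most members called, 6 lower and 1 higher, beside 4.42% of all genes. The other extracts had 0 to 3, all of them lower, beside 0.614 to 6.77% of all genes. With 1 library left out Guibi-tang had 2 to 8, and in fits of the compared groups alone it did not have the most. All Soyo-san and Okbyeongpung-san libraries lay after the step and all vehicle libraries before it. All 6 extracts were set against the same 3 vehicle libraries, so the comparisons are not independent of each other. The heat map of the 42 genes shows all changes side by side.

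**Figure D3:**
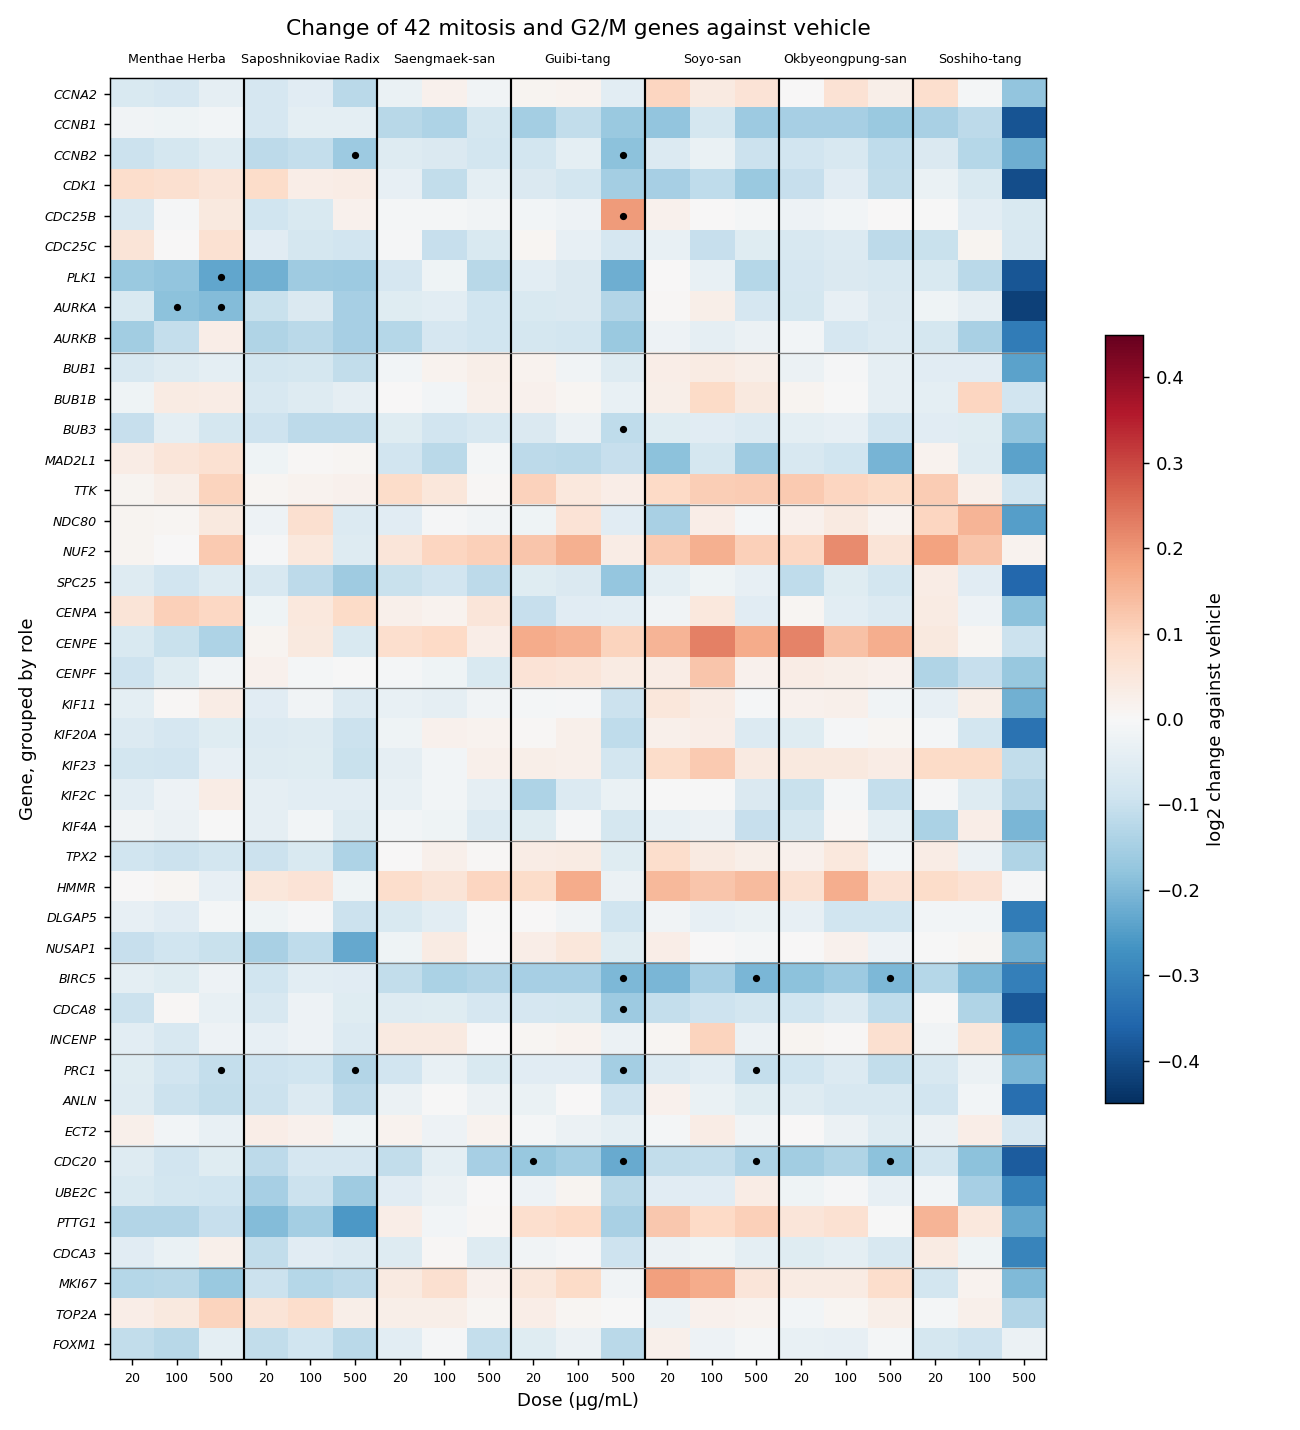
Log2 change of each of the 42 genes (rows, grouped by role) against vehicle at 20, 100 and 500 µg/mL of each extract (columns); blue is lower and red higher than vehicle, and black dots mark adjusted p under 0.05. Soshiho-tang columns are 1 library each, shown as the ratio to the vehicle mean with no test. CDC25B with Guibi-tang at 500 µg/mL is the one red cell with a dot, and the last column is blue for 41 genes.

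With Guibi-tang at 500 µg/mL, CDC20, CCNB2, PRC1, BIRC5, CDCA8 and BUB3 were called lower than with vehicle, by 0.12 to 0.23 on the log2 scale. The phosphatase gene CDC25B was called higher. The keratin gene KRT8 was lower in the same comparison (-0.29 ± 0.04, adjusted p = 8.9e-06), and its part in the result was not tested. CDC20, the activator of the anaphase-promoting complex, had 124, 125 and 119 CPM with Guibi-tang, against 145, 143 and 143 CPM with vehicle. The groups did not overlap, and the change was -0.23 ± 0.04 (log2, SE; edgeR's quasi-likelihood test, adjusted p = 0.00064). CDC25B, which frees CDK1 from its inhibitory phosphates, had 413, 397 and 435 CPM with Guibi-tang, against 363, 365 and 362 CPM with vehicle. It was higher in 3 of 3 libraries, by 0.19 ± 0.04 (adjusted p = 0.00030), and both genes kept their call whichever library was left out. In a fit of the Guibi-tang and vehicle groups alone, CDC20 kept its call (adjusted p = 0.031) and CDC25B missed the threshold (adjusted p = 0.075). With 7 of 42 genes called, the share stood beside 4.42% of all genes tested, and 37 of the 42 lay below 0 with a median of -0.09, against a median of -0.00 for all genes.

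Cyclin B2, CCNB2, had 94.9, 94.9 and 105 CPM with Guibi-tang, against 111, 113 and 110 CPM with vehicle (-0.18 ± 0.04, adjusted p = 0.0078). The library with 105 CPM lay after the step and the others before it. PRC1, which bundles the microtubules of the central spindle for cytokinesis, had 216, 205 and 223 CPM with Guibi-tang, against 236, 241 and 237 CPM with vehicle (-0.15 ± 0.03, adjusted p = 0.0030). Every Guibi-tang library was below every vehicle library for both genes. CCNB2 missed the threshold without Guibi-tang library 1 or 2 (adjusted p = 0.058 and 0.069), and PRC1 without library 2 (adjusted p = 0.059).

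The passenger complex places the Aurora B kinase at centromeres and at the midzone, and 2 of its 3 measured members besides AURKB were lower. BIRC5 had 162, 162 and 144 CPM with Guibi-tang, against 182, 180 and 176 CPM with vehicle (-0.20 ± 0.06, adjusted p = 0.042). CDCA8, which encodes borealin, had 47.8, 40.9 and 42.7 CPM with Guibi-tang, against 47.1, 49.0 and 50.7 CPM with vehicle (-0.16 ± 0.05, adjusted p = 0.044), and the groups overlapped in 1 library. INCENP, the scaffold of the complex, was not called. BUB3, a spindle checkpoint protein, had 147, 142 and 144 CPM with Guibi-tang, against 157, 163 and 149 CPM with vehicle (-0.12 ± 0.04, adjusted p = 0.049). The calls of these 3 genes rested on single libraries: the adjusted p rose to at most 0.24 for BIRC5 with any 1 of the 6 libraries left out, to at most 0.33 for CDCA8 with vehicle library 2 or 3 or Guibi-tang library 2 or 3 left out, and to at most 0.32 for BUB3 with any but vehicle library 3 left out.

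PLK1, the kinase that drives spindle assembly and exit from G2, was uneven among the Guibi-tang libraries. It had 161, 153 and 193 CPM with Guibi-tang, against 193, 195 and 202 CPM with vehicle. The high library lay after the step, and the change of -0.22 ± 0.07 was not called (adjusted p = 0.052). Over the libraries before the step alone it was -0.32 (adjusted p = 1.2e-05), and with the side as a term -0.30 (adjusted p = 7.8e-07). Other kinases and cyclins near the threshold in the fit without that term were AURKB, at 82.0, 81.3 and 90.7 CPM with Guibi-tang, against 97.3, 96.4 and 90.8 CPM with vehicle (adjusted p = 0.055), and CCNB1, at 178, 176 and 164 CPM, against 194, 192 and 194 CPM (adjusted p = 0.055). With the side of the step as a term, 19 of the 42 genes were called with Guibi-tang, 18 of them lower and CDC25B higher (0.17, adjusted p = 0.00012), beside 10.0% of all genes. Among the libraries before the step alone 20 were called, beside 10.5% of all genes, and they again had CDC25B as the one higher gene (0.16, adjusted p = 0.0016).

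**Figure D4:**
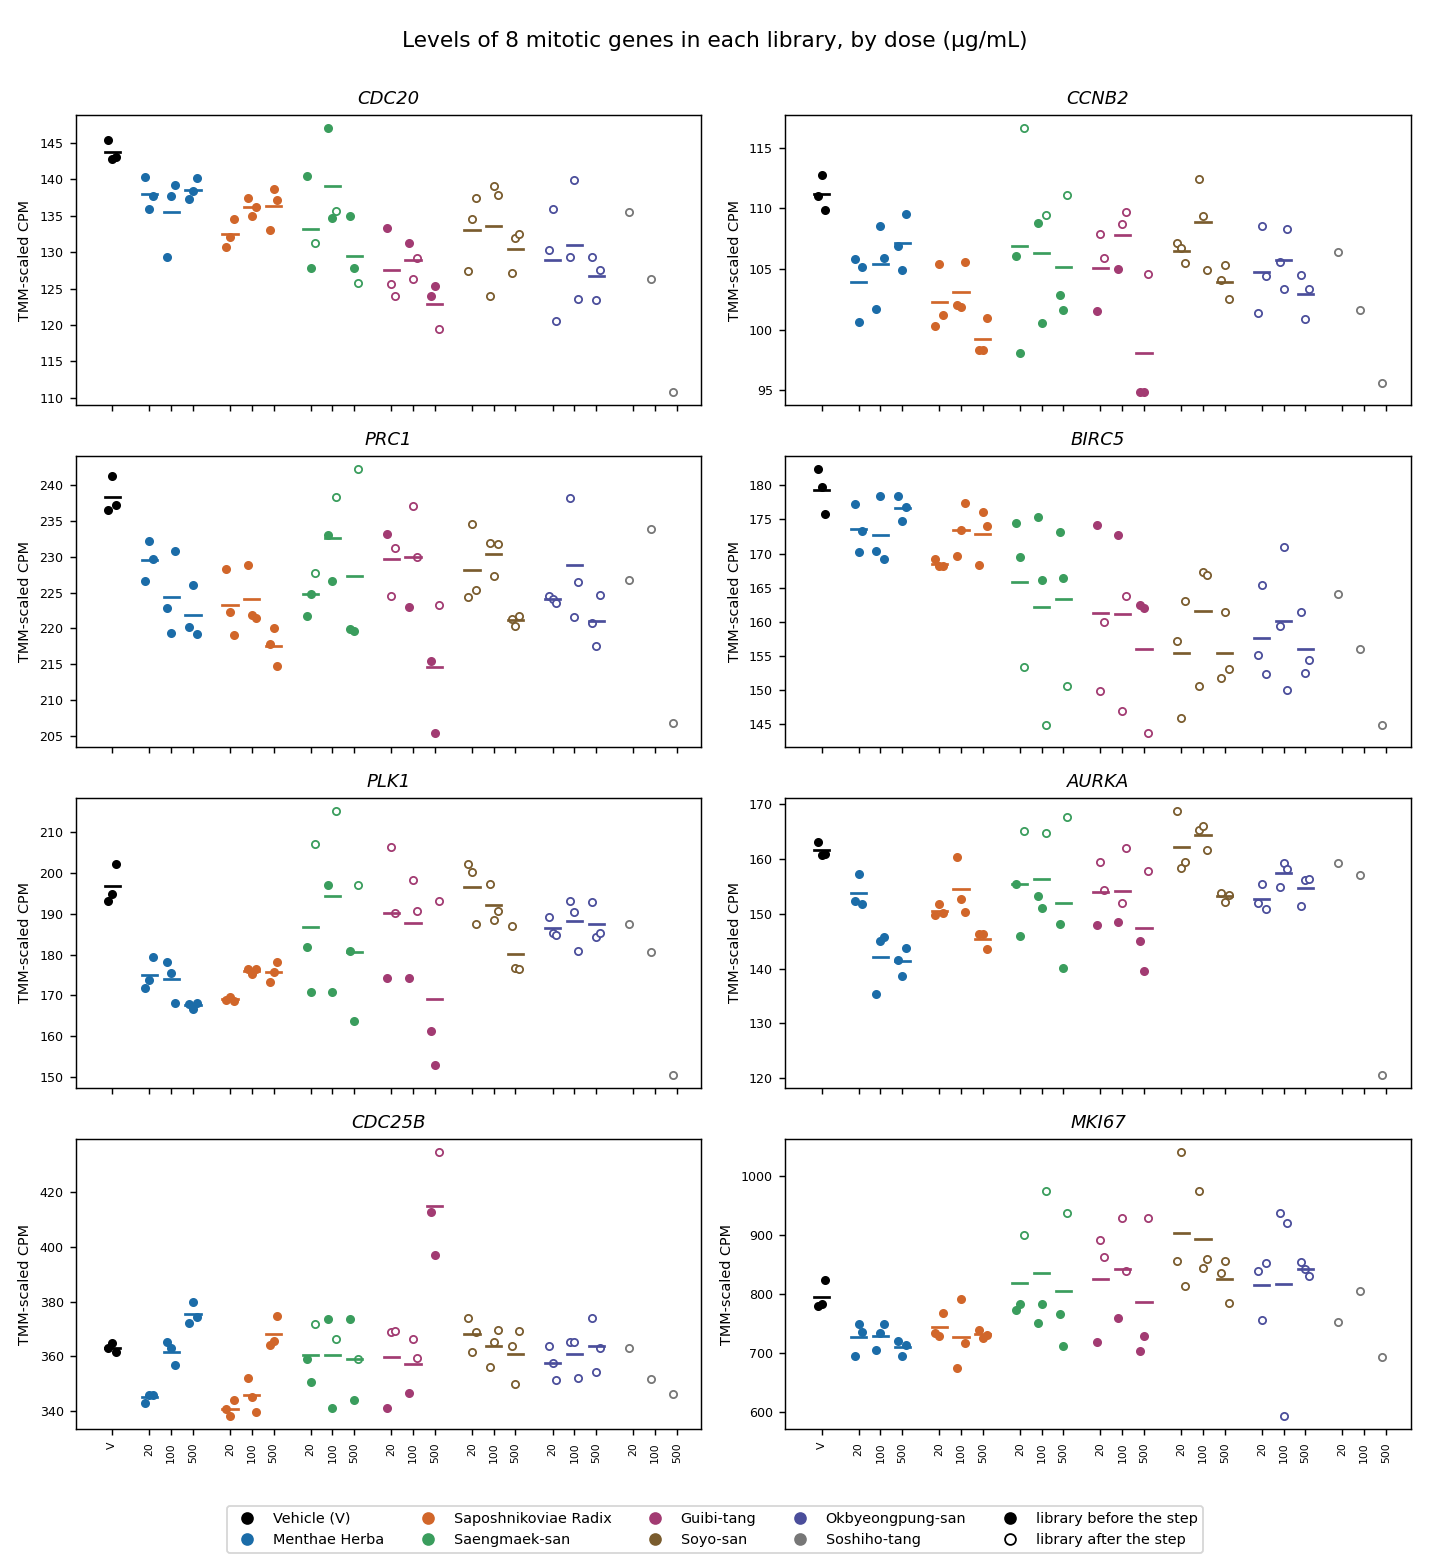
TMM-scaled CPM of 8 of the genes in each library (vertical axes, which do not start at 0), for vehicle (V) at the left and then 20, 100 and 500 µg/mL of each extract (horizontal axis). Filled points lie before the step in the order of library names, open points after it, and bars are means of 3. CDC25B stands at 397 to 435 CPM with Guibi-tang at 500 µg/mL, against 362 to 365 CPM with vehicle, and AURKA stands at 121 CPM in the Soshiho-tang library at 500 µg/mL.

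With Menthae Herba at 500 µg/mL, 3 of the 42 genes were called lower than with vehicle, 2 mitotic kinases and PRC1. That share lay near the 6.77% of all genes tested that were called. AURKA, the centrosomal Aurora kinase, had 142, 139 and 144 CPM with the herb, against 163, 161 and 161 CPM with vehicle (-0.20 ± 0.05, adjusted p = 0.0051). PLK1 had 168, 167 and 168 CPM, against 193, 195 and 202 CPM with vehicle (-0.23 ± 0.07, adjusted p = 0.026). Neither gene's groups overlapped, and all these libraries lay before the step. PRC1 had 220, 226 and 219 CPM with the herb, against 236, 241 and 237 CPM with vehicle (-0.11 ± 0.03, adjusted p = 0.044). AURKA kept its call whichever library was left out, whereas PLK1 and PRC1 missed the threshold without any 1 of the 6 (adjusted p of 0.055 to 0.11 and of 0.059 to 0.17). TOP2A lay on the other side, at 1069, 1065 and 1098 CPM with the herb and 1003, 982 and 1028 CPM with vehicle. It was not called in the fit without the side of the step (0.10 ± 0.03, adjusted p = 0.053). TOP2A was called higher with the side as a term (0.10, adjusted p = 0.024) and among the libraries before the step (0.10, adjusted p = 0.020). The median of the 42 was -0.03. With the side as a term 4 were called, 3 lower and 1 higher, beside 12.2% of all genes, and among the libraries before the step 6, beside 15.2%. Both shares lay below those of all genes. In the same comparison the fibroblast marker COL1A1 was higher (0.39 ± 0.06, adjusted p = 9.1e-06) and KRT8 lower (-0.27 ± 0.04, adjusted p = 2.5e-05), and their part in the result was not tested.

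With Saposhnikoviae Radix at 500 µg/mL, CCNB2 and PRC1 were called lower than with vehicle, beside 1.56% of all genes tested. CCNB2 had 98.3, 98.3 and 101 CPM with the herb, against 111, 113 and 110 CPM with vehicle (-0.16 ± 0.04, adjusted p = 0.041). At 20 and 100 µg/mL of the herb it averaged 102 and 103 CPM. PRC1 had 218, 220 and 215 CPM, against 236, 241 and 237 CPM with vehicle (-0.13 ± 0.03, adjusted p = 0.028). The groups of both genes were apart, yet both missed the threshold without any 1 of the 6 libraries (adjusted p of 0.071 to 0.17 and of 0.059 to 0.15). The median of the 42 was -0.07, and 36 lay below 0. The value furthest from 0 was that of PTTG1, securin, the inhibitor of the enzyme that parts sister chromatids, at 84.8, 87.9 and 85.1 CPM with the herb, against 100, 108 and 100 CPM with vehicle. It was not called in the fit without the side of the step (-0.26 ± 0.11, adjusted p = 0.23). With the side as a term it was -0.26 (adjusted p = 0.00059), and 10 of the 42 genes were called, all lower, beside 5.80% of all genes. With the libraries before the step alone 15 were called, all lower, beside 9.39% of all genes, among them TPX2 (-0.14, adjusted p = 0.0033) and NUSAP1, which binds spindle microtubules (-0.23, adjusted p = 0.00014).

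With Saengmaek-san at 500 µg/mL, none of the 42 genes was called by edgeR's quasi-likelihood test, beside 0.614% of all genes tested. At an unadjusted p under 0.05 there were 5, and DESeq2 called 1. The 95% intervals of the changes spanned -0.26 to 0.25 over the 42 genes, and the median was -0.02. Its library 3 lay after the step and stood above the others for PLK1 (181, 164 and 197 CPM, against 193, 195 and 202 CPM with vehicle) and MKI67 (767, 713 and 938 CPM, against 780, 784 and 824 CPM with vehicle). With the side as a term 4 genes were called, all lower, beside 2.18% of all genes: PLK1 (-0.20, adjusted p = 0.0033), FOXM1, a transcription factor of the G2/M genes (-0.16, adjusted p = 0.0098), AURKA (-0.14, adjusted p = 0.013) and CCNB2 (-0.12, adjusted p = 0.048). Among the libraries before the step 4 were called as well, all lower, beside 2.13% of all genes.

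Soyo-san and Okbyeongpung-san at 500 µg/mL both showed lower BIRC5 and CDC20, and all their libraries lay after the step. BIRC5 had 152, 161 and 153 CPM with Soyo-san, against 182, 180 and 176 CPM with vehicle (-0.21 ± 0.06, adjusted p = 0.030). With Okbyeongpung-san it had 161, 153 and 154 CPM (-0.20 ± 0.06, adjusted p = 0.048). BIRC5 was itself lower after the step, and with the side as a term the changes were -0.03 in both (adjusted p = 0.74 and 0.77). CDC20 had 127, 132 and 132 CPM with Soyo-san (-0.14 ± 0.04, adjusted p = 0.0499) and 129, 123 and 128 CPM with Okbyeongpung-san (-0.18 ± 0.04, adjusted p = 0.011), against 145, 143 and 143 CPM with vehicle, and with the side as a term -0.09 (adjusted p = 0.27) and -0.13 (adjusted p = 0.065). PRC1 was called with Soyo-san, at 221, 220 and 222 CPM, against 236, 241 and 237 CPM with vehicle (-0.11 ± 0.03, adjusted p = 0.046), and at -0.11 ± 0.03 missed the threshold with Okbyeongpung-san (adjusted p = 0.054).

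That made 3 of the 42 genes with Soyo-san, beside 6.03% of all genes tested, and 2 with Okbyeongpung-san, beside 3.39%. Both shares lay close to those of all genes. The Soyo-san calls of CDC20 and PRC1 and the Okbyeongpung-san call of BIRC5 were lost without any 1 of the 6 libraries (adjusted p of 0.073 to 0.20). BIRC5 with Soyo-san was lost without any library but Soyo-san library 2 (adjusted p up to 0.13), and CDC20 with Okbyeongpung-san without Okbyeongpung-san library 2 (adjusted p = 0.080). With the side as a term 14 were called with Soyo-san, beside 11.7% of all genes, and 17 with Okbyeongpung-san, beside 12.5%, all lower. PLK1 was at -0.35 (adjusted p = 1.0e-06) and -0.29 (adjusted p = 3.4e-05), PTTG1 at -0.27 (adjusted p = 0.00097) and -0.38 (adjusted p = 1.3e-05), and UBE2C, the ubiquitin-conjugating enzyme of the anaphase-promoting complex, at -0.23 (adjusted p = 0.0056) and -0.30 (adjusted p = 0.00039). PRC1, at -0.17 in both, was called in both. All 3 libraries of UBE2C with Okbyeongpung-san, at 79.0, 80.8 and 82.4 CPM, lay close to the 83.4, 83.5 and 81.3 CPM with vehicle. PTTG1 without the term was at 0.11 with Soyo-san and -0.00 with Okbyeongpung-san, so the calls of both genes rest on the estimated difference between the stretches. PLK1 was called with neither decoction without the term and was itself higher after the step (0.22 ± 0.02, log2, SE). Its calls here also rest on that estimate. Of the genes called lower with the term, 3 lay above 0 without it for Soyo-san (PTTG1, TPX2 and UBE2C) and 2 for Okbyeongpung-san (CCNA2 and KIF20A). KRT8 was lower with both decoctions (-0.27 ± 0.04 in each, adjusted p = 3.6e-05 and 8.4e-05). Of the other epithelial markers, with Soyo-san KRT19 was lower (-0.21 ± 0.06, adjusted p = 0.029) and CDH1 higher (0.19 ± 0.06, adjusted p = 0.047). The part of these markers in the result was not tested.

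CDK1, MKI67 and FOXM1 were not called against vehicle with any of the 6 extracts at 500 µg/mL in the fit without the side of the step. CDK1, the kinase of mitotic entry, averaged 106 ± 1.92 CPM with Menthae Herba, 91.3 ± 7.82 CPM with Guibi-tang and 90.3 ± 6.10 CPM with Soyo-san at 500 µg/mL, against 101 ± 0.868 CPM with vehicle (SD, n = 3 each), and was called in none of the 6 comparisons. MKI67 averaged 710 ± 13.2 CPM with Menthae Herba and 843 ± 11.9 CPM with Okbyeongpung-san, against 796 ± 24.7 CPM with vehicle (SD, n = 3 each). Its highest level was 1041 CPM in a Soyo-san library at 20 µg/mL and its lowest 593 CPM in an Okbyeongpung-san library at 100 µg/mL, both after the step. FOXM1 averaged 244 CPM with Soyo-san and with Okbyeongpung-san and 225 to 238 CPM with the other extracts, against 245 CPM with vehicle. FOXM1 was called lower, once the side was a term, with the 5 extracts other than Menthae Herba (with Guibi-tang -0.17, adjusted p = 0.00095). Among the libraries before the step MKI67 was called lower with Menthae Herba (-0.16, adjusted p = 0.0056) and Guibi-tang (-0.15, adjusted p = 0.033).

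The doses were then compared, first each lower dose with vehicle and then 500 with 20 µg/mL inside each extract. At 20 and 100 µg/mL, 2 of 504 tests of a member against vehicle were called, beside 1.09% of all such tests over all genes. AURKA with Menthae Herba at 100 µg/mL had 135, 145 and 146 CPM, against 163, 161 and 161 CPM with vehicle (-0.19 ± 0.05, adjusted p = 0.036), and at 20 µg/mL it had 152, 157 and 152 CPM. CDC20 with Guibi-tang at 20 µg/mL had 133, 126 and 124 CPM, against 145, 143 and 143 CPM with vehicle (-0.17 ± 0.04, adjusted p = 0.036), and -0.14 with the side as a term (adjusted p = 0.087). The AURKA call was lost without any 1 of its 6 libraries (adjusted p up to 0.27) and the CDC20 call without any but Guibi-tang library 1 at 20 µg/mL (adjusted p up to 0.21).

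For the single herbs the median distance from vehicle was no larger at the top dose than at the lowest. The median change of the 42 genes against vehicle with Menthae Herba was -0.06 at 20, -0.05 at 100 and -0.03 at 500 µg/mL, and with Saposhnikoviae Radix it was -0.07, -0.05 and -0.07. With Guibi-tang it was -0.01, -0.01 and -0.09, where 2 of 3 libraries lay after the step at 20 and at 100 µg/mL and 1 of 3 at 500 µg/mL. The Guibi-tang medians with the side as a term were -0.07, -0.06 and -0.12. PLK1 with Saposhnikoviae Radix had 169, 170 and 169 CPM at 20 µg/mL and 173, 176 and 178 CPM at 500 µg/mL, against 193, 195 and 202 CPM with vehicle. Its groups at both doses lay below vehicle with no overlap, although neither dose was called (adjusted p = 0.12 at 20 and 0.25 at 500 µg/mL). With the side as a term, PLK1 was called lower in 17 of the 18 comparisons with vehicle, and 61 of the 504 lower-dose tests were called, beside 3.78% over all genes. Of the 61, Soyo-san had 8 at 20 and 9 at 100 µg/mL and Okbyeongpung-san 14 and 12, and the other extracts had 0 to 6 at a dose. The calls with these 2 decoctions rest on the difference between the stretches, estimated in Saengmaek-san and Guibi-tang. In the fit without the term PLK1 was called in 1 of the 18. Over the 18 comparisons in the fit without it, BIRC5, BUB3, CCNB1, CCNB2, CDC20, PRC1 and SPC25, a kinetochore gene, lay below 0 in all 18, and TTK, the checkpoint kinase MPS1, above 0 in all 18, with the 3 vehicle libraries shared by every one of them. With the side as a term TTK ran from -0.05 to 0.10, BIRC5 from -0.15 to 0.02 and CCNB1 from -0.13 to 0.05. BUB3, CCNB2, CDC20, PRC1 and SPC25 stayed below 0 with it.

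Between 500 and 20 µg/mL, where no vehicle library enters, 1 member was called with Guibi-tang, 1 with Menthae Herba and 0 with the other extracts. CDC25B with Guibi-tang had 413, 397 and 435 CPM at 500 µg/mL, against 341, 369 and 369 CPM at 20 µg/mL, with 346, 366 and 359 CPM at 100 µg/mL. The top dose lay above every other Guibi-tang library (0.20 ± 0.04, adjusted p = 0.00032, beside 0.997% of all genes), and the call held with any library left out and with the side as a term (0.23, adjusted p = 1.3e-06, beside 1.2% of all genes). It missed the threshold in a fit of these groups alone (0.21, adjusted p = 0.62). Within each stretch 1 of the groups had a single library, assumed to vary like the other groups, and the difference was 0.25 before the step (2 libraries at 500 and 1 at 20 µg/mL, adjusted p = 0.0038, beside 0.38% of all genes) and 0.24 after it (1 library at 500 and 2 at 20 µg/mL, adjusted p = 0.085). In the fit without the side of the step, the median of the 42 genes was -0.07 and 38 lay below 0, and 9 of the 42 were at an unadjusted p under 0.05. CCNB2 was at -0.10 ± 0.04 (adjusted p = 0.40) and PLK1 at -0.17 ± 0.07 (adjusted p = 0.32). With the side as a term CCNB2 was nearer to 0, at -0.07 (adjusted p = 0.57), and so was PLK1, at -0.10 (adjusted p = 0.34).

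With Menthae Herba the called gene was AURKB, the kinase of the passenger complex, at 92.5, 95.4 and 103 CPM at 500 µg/mL, against 84.4, 80.7 and 89.8 CPM at 20 µg/mL (0.19 ± 0.05, adjusted p = 0.038, beside 2.43% of all genes). The vehicle libraries, at 97.3, 96.4 and 90.8 CPM, lay with the top dose. The call was lost without library 2 or 3 at 500 µg/mL (adjusted p = 0.076 and 0.31) or library 1 or 2 at 20 µg/mL (adjusted p = 0.12 and 0.28). CDC25B with this herb had 343, 346 and 346 CPM at 20 µg/mL, 365, 363 and 357 CPM at 100 µg/mL and 372, 380 and 374 CPM at 500 µg/mL. The 3 doses did not overlap, and the difference of 500 and 20 µg/mL was 0.12 ± 0.04 (adjusted p = 0.061, or 0.010 with the side as a term). AURKB, CDC25B and AURKA were called between these doses with the side as a term, beside 4.14% of all genes, and among the libraries before the step, beside 5.03%. The vehicle level of 362 to 365 CPM lay among the libraries at 100 µg/mL.

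Saposhnikoviae Radix had 0 of the 42 genes called between the doses by edgeR's quasi-likelihood test, 1 at an unadjusted p under 0.05 and 0 by DESeq2, beside 0.0811% of all genes. That 1 gene was CDC25B, at 364, 366 and 375 CPM at 500 µg/mL, against 341, 338 and 344 CPM at 20 µg/mL (0.11 ± 0.04, adjusted p = 0.81). Soyo-san had 0 called, 1 at an unadjusted p under 0.05 and 0 by DESeq2, beside 0.614%, and 0 with the side as a term, beside 1.07%, or among the libraries after the step, beside 0.443%. Okbyeongpung-san had 0 by each of the 3 counts, beside 0.0985%. Saengmaek-san also had 0 by each, in a comparison where edgeR called 0 of all genes tested, with 469 at an unadjusted p under 0.05 and 1 by DESeq2. Over the 42 genes, the 95% intervals ran from -0.26 to 0.22 with Saengmaek-san and from -0.28 to 0.27 with Okbyeongpung-san.

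Over the 6 extracts together, CDC25B was the one member called between doses in the fit without the side of the step. At 500 against 20 µg/mL it was higher by 0.07 ± 0.01 (adjusted p = 0.0014), beside 3.22% of all genes called. The change came to 0.04 without Guibi-tang (adjusted p = 0.11) and 0.06 without Menthae Herba (adjusted p = 0.090), and to 0.06 and 0.07 without replicate 1 or 3 of every group (adjusted p = 0.16 and 0.077). Among the libraries before the step it was 0.12 (adjusted p = 6.0e-05) and among those after it 0.04 (adjusted p = 0.87). AURKA was at -0.06 ± 0.02 (adjusted p = 0.10) and PRC1 at -0.04 ± 0.01 (adjusted p = 0.11), and neither was called. AURKA was called with the side as a term (-0.05, adjusted p = 0.013, beside 4.75% of all genes), and both AURKA (-0.07, adjusted p = 0.024) and PRC1 (-0.06, adjusted p = 0.015) among the libraries before the step, beside 2.59%. All 42 intervals lay between -0.15 and 0.10, and 32 of the 42 estimates were below 0 with a median of -0.02. At 100 against 20 µg/mL 0 members were called by edgeR's quasi-likelihood test, 1 at an unadjusted p under 0.05 and 0 by DESeq2, beside 0.0522% of all genes.

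**Figure D5:**
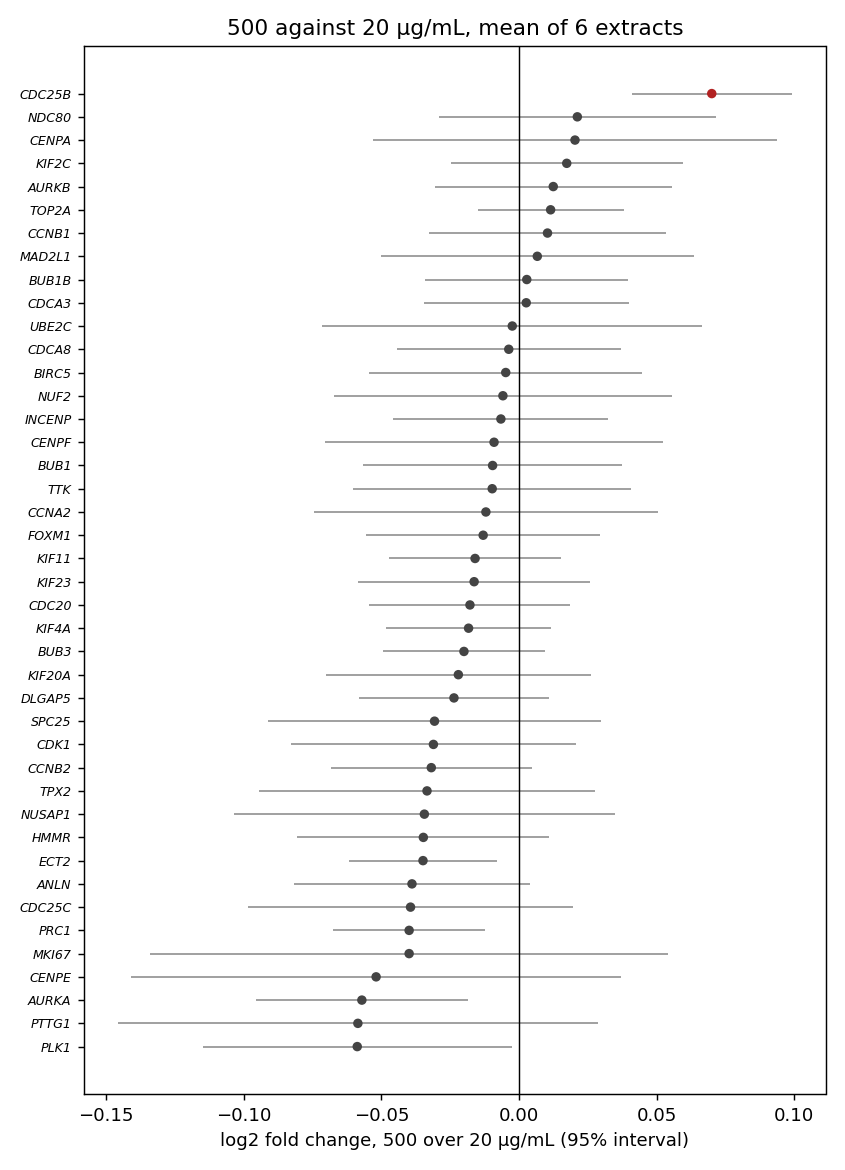
Change of each of the 42 genes at 500 over 20 µg/mL, as the mean of 6 extracts, in log2 with its 95% interval (horizontal axis), one gene a row in order of size. CDC25B at 0.07 is the one gene past adjusted p under 0.05 (red), and all intervals lie between -0.15 and 0.10.

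The dose effects of 3 pairs of extracts were set against each other. The change of CDC25B from 20 to 500 µg/mL was larger with Guibi-tang, at 0.20, than with Saengmaek-san, at -0.01, by 0.21 ± 0.05 (adjusted p = 0.045, beside 0.296% of all genes). The call was lost without 7 of the 12 libraries, namely libraries 1 and 3 of Guibi-tang at 500 µg/mL, library 1 of Guibi-tang at 20 µg/mL, libraries 2 and 3 of Saengmaek-san at 500 µg/mL and libraries 1 and 3 of Saengmaek-san at 20 µg/mL, with adjusted p from 0.072 to 0.21. Menthae Herba against Saposhnikoviae Radix gave 0 members called by edgeR's quasi-likelihood test, 2 at an unadjusted p under 0.05 and 0 by DESeq2, beside 0.197% of all genes. Between these herbs AURKB differed by 0.20 (95% interval 0.05 to 0.35, adjusted p = 0.59) and CDC25B by 0.01 (95% interval -0.09 to 0.11). Soyo-san against Okbyeongpung-san gave 0, 1 and 0 by the same counts, beside 0.029%.

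Soshiho-tang at 500 µg/mL was 1 library in which nearly the whole group of genes was low, and it has no test. Of the 42 genes, 39 lay below all 3 vehicle libraries and 0 above, where 36.2% of all genes tested lay below. The median log2 ratio to the vehicle mean was -0.22, with a range from -0.42 to 0.02. Set against the Soshiho-tang library at 20 µg/mL, 40 of the 42 were lower with a median of -0.20, where 50.2% of all genes were lower. Both Soshiho-tang libraries lay after the step, and their mitochondrial shares were 14.9 and 14.3%.

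The kinases of mitotic entry, cyclin B1 and CDC20 were among the genes furthest down in that library. AURKA had 121 CPM at 500 µg/mL (95% Poisson interval 116 to 125, which covers counting error only), with 159 CPM at 20 and 157 CPM at 100 µg/mL, against 161 to 163 CPM with vehicle. CDK1 had 77.0 CPM (interval 73.4 to 80.6), with 99.4 and 96.8 CPM at the lower doses, against 101 to 102 CPM with vehicle. CCNB1 had 148 CPM, PLK1 151 CPM and CDC20 111 CPM at 500 µg/mL, against 192 to 194, 193 to 202 and 143 to 145 CPM with vehicle. For each of these 5 genes the library held the lowest level of all 60. FOXM1 at 241 CPM, HMMR, a spindle assembly factor, at 64.3 CPM and NUF2, a partner of NDC80, at 29.3 CPM were within 0.03 of the vehicle mean on the log2 scale. The libraries at 100 and 20 µg/mL had 19 and 17 genes below the vehicle range, or 45.2 and 40.5% of the group, and 8 above in each. Of all genes tested, 31.1 and 32.1% lay below it.

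Other genes of the cell cycle were called in small numbers at 500 µg/mL against vehicle. The calls of this and the next paragraph are from the fit without the side of the step. These lists were not followed with the side as a term, in the other alternatives or with libraries left out. All Soyo-san and Okbyeongpung-san libraries lay after the step and all vehicle libraries before it, and 43.7% of all genes differed across it. Of 64 further G2/M genes, 3 were lower with Guibi-tang (4.69%, beside 4.42% of all genes), among them the kinesin KIF18B (-0.19 ± 0.03, adjusted p = 0.00013), while 3 were higher with Menthae Herba (4.69%, beside 6.77% of all genes): ESPL1, which encodes separase (0.26 ± 0.06, adjusted p = 0.0086), and the kinesins KIF15 (0.24 ± 0.06, adjusted p = 0.010) and KIF14 (0.18 ± 0.06, adjusted p = 0.047). Soyo-san had 3 lower and 1 higher, the kinetochore scaffold gene KNL1, beside 6.03% of all genes. Okbyeongpung-san had 3 lower, beside 3.39% of all genes. CCNF, the cyclin of a ubiquitin ligase, was the largest in both (-0.24). The other 2 extracts had 0 by edgeR, with 12 at an unadjusted p under 0.05 for Saposhnikoviae Radix and 13 for Saengmaek-san. None of the 16 genes of the anaphase-promoting complex list was called with any of the 6 extracts by edgeR, with 0 to 3 at an unadjusted p under 0.05.

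Of 26 genes of DNA replication and the G1/S transition, 4 were called lower with Guibi-tang (beside 4.42% of all genes) and 4 with Soyo-san (beside 6.03%). With Okbyeongpung-san 3 were called lower (beside 3.39%), with Menthae Herba 2 (beside 6.77%) and with Saposhnikoviae Radix 1 (beside 1.56%). None was called higher, and the Menthae Herba share lay near that of all genes. RRM2, a subunit of ribonucleotide reductase, fell by 0.17 ± 0.03 with Guibi-tang (adjusted p = 0.00023) and with Saposhnikoviae Radix (adjusted p = 0.00046), and by 0.15 ± 0.03 with Menthae Herba (adjusted p = 0.00099). Of 8 inhibitors of the cell cycle, BTG2, an antiproliferative gene induced by p53, was lower with 5 extracts, from -0.38 ± 0.10 with Saposhnikoviae Radix (adjusted p = 0.037) to -0.60 ± 0.10 with Okbyeongpung-san (adjusted p = 0.00020). CDKN1C, the gene of the inhibitor p57, was higher with Menthae Herba (1.81 ± 0.47, adjusted p = 0.011), at low counts of 15, 5 and 12 with the herb, against 4, 5 and 3 with vehicle. CDKN1A, the gene of p21, was called with Soyo-san alone (-0.18 ± 0.06, adjusted p = 0.049). GADD45A was lower with Guibi-tang (-0.31 ± 0.09, adjusted p = 0.042), Menthae Herba (-0.32 ± 0.09, adjusted p = 0.023) and Saposhnikoviae Radix (-0.34 ± 0.09, adjusted p = 0.044). CDKN2C was lower with Guibi-tang (-0.27 ± 0.08, adjusted p = 0.034) and Soyo-san (-0.33 ± 0.08, adjusted p = 0.0057). RBL2, the p130 pocket protein of the DREAM repressor complex, was higher with Menthae Herba (0.16 ± 0.04, adjusted p = 0.013), Guibi-tang (0.14 ± 0.04, adjusted p = 0.048) and Okbyeongpung-san (0.14 ± 0.04, adjusted p = 0.0495). The inhibitors and RBL2 are named as single genes of short lists. They stand beside 0.614% of all genes called with Saengmaek-san, 1.56% with Saposhnikoviae Radix and 3.39 to 6.77% with the other extracts. Whether these lists pass those shares was not tested.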

How the data were processed

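RNA from A549 cells was prepared with a directional MGIEasy kit, per the labels' protocols. The authors deposited RSEM expected counts, estimated counts per gene that need not be whole. The submitters' processing notes name FastQC 0.11.9, Trim Galore 0.6.5, STAR 2.7.3a and RSEM 1.3.3 on hg38. The annotation release and strand setting are not given in the sources used here, and reads of near-identical copies, such as CDC20P1 beside CDC20, may be split.

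Expected counts were rounded (10.5% of values were not whole). One quasi-likelihood fit was made in edgeR 4.0.16 (R 4.3.3) over 57 libraries in 19 groups, with TMM scaling and edgeR's filter on low counts. P-values were adjusted by Benjamini-Hochberg over 17256 genes in each comparison and called under 0.05. Levels are TMM-scaled CPM. Alternatives were DESeq2, other scaling, no filter, fits of single groups, the replicate block, the side of the step and left-out libraries; those for the differences between extracts, the lower doses and the medians were added after the data were seen. The fit was tested on simulated data. The text follows CCNB2, CDC20, MKI67, CCNB1, CDK1, PLK1, AURKA, UBE2C, TOP2A and FOXM1 and names every member called in a comparison with 8 or fewer calls. Of the other lists it names only some of the called genes, from the 3 of the largest change per list and comparison. PTTG1, NUSAP1, AURKB with Guibi-tang, and members named in the Soshiho-tang library or for the library order were picked after their values were seen. Members and lists were chosen with earlier results of these data known.

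Libraries of the same replicate number had every correlation of deviations above 0.1 in 1 of 12 comparisons, Saengmaek-san 500 against 20 µg/mL (0.12, 0.19 and 0.35). In both of these groups replicates 1 and 2 lay before the step and replicate 3 after it. Replicate number and side of the step go together there, and pairing apart from the step was not tested. The block left the count of this comparison at 0.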

Additional observations from a re-analysis of the deposited data

Results flagged for a closer look

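The change of CDC25B between 20 and 500 µg/mL differed between Guibi-tang and Saengmaek-san by 0.21 ± 0.05 on the log2 scale (SE, 3 libraries in each of 4 groups; edgeR's quasi-likelihood test of the difference, adjusted p = 0.045). All 3 Guibi-tang libraries at 500 µg/mL were above all 3 at 20 µg/mL, while the Saengmaek-san libraries of the same doses overlapped. The adjusted p passed 0.05 without any of 7 of the 12 libraries, reaching 0.21. Groups of 3 libraries are too small for a search for single libraries that stand apart.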

How the results depend on the processing

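No change of a member called in the fit without the side of the step reversed in an alternative. Members without a call did change sign with the side as a term: 13 of the 42 with Soyo-san, 12 with Saengmaek-san, 11 with Okbyeongpung-san and 2 with Guibi-tang lay above 0 without it and below 0 with it. The Saengmaek-san median between 500 and 20 µg/mL, near 0, also changed sign. The counts of the 42 genes called at 500 µg/mL against vehicle moved with the side of the step as a term to 10 for Saposhnikoviae Radix, 4 for Saengmaek-san, 19 for Guibi-tang, 14 for Soyo-san and 17 for Okbyeongpung-san, against 2, 0, 7, 3 and 2 without it. Over libraries before the step alone they were 6 for Menthae Herba, 15, 4 and 20 for Saposhnikoviae Radix, Saengmaek-san and Guibi-tang. In fits of the compared groups alone they were 7 for Menthae Herba, 16 for Saposhnikoviae Radix, 1 for Guibi-tang, 8 for Soyo-san and 10 for Okbyeongpung-san, and by DESeq2 4 for Saposhnikoviae Radix, 1 for Saengmaek-san, 5 for Soyo-san and 4 for Okbyeongpung-san. Without a filter on low counts Soyo-san had 1. With 1 library left out they ranged from 1 to 2 for Menthae Herba, 0 to 0 for Saposhnikoviae Radix and Saengmaek-san, 2 to 8 for Guibi-tang and 0 to 1 for Soyo-san and Okbyeongpung-san.

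For 500 against 20 µg/mL, Menthae Herba had 3 with the side term, 3 before the step, 3 in its own groups, 2 by DESeq2 and 0 without the filter, against 1. Guibi-tang had 2 without the filter and 0 in its own groups or after the step, against 1. The 6 extracts together had 2 with the side term, 2 by DESeq2, 3 before the step, 0 after it and 0 without the filter, against 1. The difference of Guibi-tang and Saengmaek-san had 0 without the filter, in its own groups, before the step and after it, against 1. The lower doses had 61 with the side term, 33 in their own groups, 7 by DESeq2 and 7 without the filter, against 2. With libraries left out these ranged from 0 to 1, 1 to 2, 0 to 3, 0 to 1 and 0 to 4, and the other comparisons from 0 to 0. The cause was not tested. With the replicate block, Menthae Herba had 4 called against vehicle and the lower doses 3. BUB3 with Guibi-tang (adjusted p = 0.054) and CDC20 with Soyo-san (adjusted p = 0.053) lost their call with the block, and no other named call was lost with it. By the labels, samples of the same replicate number share that number alone. Of the 23 named calls of the fit without the side of the step, 13 missed the threshold without the filter on low counts. In fits of the compared groups alone 9 did, with the side as a term 5 and with other scaling 1, and DESeq2 kept all 23.

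Small changes, up to 0.26 in log2 without the side of the step, over 3 libraries a group, and a step in the library order that holds vehicle on 1 side, limit what these data can show.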
